A study of Mus musculus with 9 samples.

Results

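The genes described here encode architectural chromatin proteins and proteins of the nuclear lamina and inner nuclear membrane, and they were followed in serum-starved mouse embryonic fibroblasts that differ at the retinoblastoma gene. The list was Hmgb1, Hmgb2, Hmgb3, Hmga1, Hmga2, Lmnb1, Lmnb2, Lmna, Tmpo and Lbr. Each gene was read from the probe set annotated to its symbol alone, the brightest on average over the 9 arrays where there were several, which gave values for 9 of the 10 genes, out of 19938 genes measured in all. Hmga1 had no such probe set and has no value here.

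The cells came in 3 genotypes with 3 arrays each: Rb ΔG/ΔG, homozygous for an allele altered at the surface through which the protein contacts most E2F transcription factors (ΔG), Rb -/- without functional protein (null), and Rb +/+ (WT). Littermates are mentioned in the design, but no label tells which arrays come from the same litter, and none gives strain or embryonic age. Cells were plated at low density in a 15 cm dish and received medium with 0.1% serum 24 h later, a treatment that makes normal fibroblasts leave the cell cycle. Values are log2 RMA signals from whole-transcript arrays, so a difference of 1 is a 2-fold change. Whether replicates are separate embryos is not labelled, so p-values measure only the spread between these arrays. In bulk RNA, fewer cells of a type and less RNA per cell cannot be told apart.

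HMGB proteins carry HMG boxes that bend DNA, and HMGA proteins bind the minor groove of AT-rich DNA through AT-hooks. Lamins B1 and B2 (Lmnb1, Lmnb2) and lamins A and C (both from Lmna) form the meshwork under the inner nuclear membrane. Tmpo encodes the LAP2 proteins, which bind lamins and chromatin, and its nucleoplasmic form LAP2alpha binds lamin A/C and the retinoblastoma protein itself. Lbr, the lamin B receptor, is an inner membrane protein that tethers heterochromatin and has a sterol reductase domain. Lmnb1, Hmgb2 and Tmpo are known as genes whose RNA is high in cycling cells, and loss of lamin B1 is widely used as a mark of senescence.

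Some features of the arrays bear on all values. Array medians lay between 6.33 and 6.401, and pairs of arrays correlated at 0.990 to 0.994 inside a genotype and at 0.981 to 0.993 across genotypes. Rb1 signal was 9.53 to 9.76 in ΔG, 8.18 to 8.58 in null and 8.93 to 9.17 in WT. Fibroblast markers were bright on every array (mean of 9 genes 10.9 to 11.6), while the means of 6 epithelial and 6 endothelial markers did not exceed 6.19 and 5.73; 1 epithelial marker rose and 1 endothelial marker fell in null against WT. Against WT, 6 of the 9 fibroblast markers fell in null cells, where 8.38% of all genes were called higher and 10.1% lower. The mean of 10 macrophage markers was 6.01 to 7.40 in ΔG, 5.83 to 6.17 in null and 5.64 to 6.75 in WT, and none of the 10 was called in either comparison with WT (2 and 0 at an unadjusted p under 0.05). Even so, all 10 differences were positive in ΔG minus WT (median 0.50), and 1 of 10 was in null minus WT (median −0.21). All null arrays and WT replicate 3 had high Xist (11.4 to 12.0) and low Eif2s3y (3.52 to 3.94), whereas on WT replicates 1 and 2 and every ΔG array Xist was 4.24 to 4.45 and Eif2s3y 9.13 to 9.61. In ΔG minus null, genotype and this sex pattern cannot be told apart. Null was therefore also set against WT replicate 3 alone, and the average Y-linked signal was entered as a covariate, and these values are given where they changed a call. In ΔG minus null the covariate rests mainly on the WT arrays. A call lost with it there does not show that a difference is absent. In null minus WT both sex pattern alternatives rest largely on WT replicate 3. A call lost in them does not show that a difference is absent or due to sex. ΔG replicate 3 stood apart from its group, with a mean over 17 mitotic genes of 8.47 against 7.85 and 7.69 on ΔG replicates 1 and 2. WT replicate 1 did likewise among the WT arrays, with 8.15 against 7.54 and 7.60 on WT replicates 2 and 3, and it was the highest WT array for Hmgb2, Hmgb3 and Lmnb1.

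In null cells Hmgb2, Lmnb1 and Tmpo rose against WT, by 1.93-fold, 1.84-fold and 1.33-fold, and none of the 9 genes fell at the adjusted threshold of 0.05. That is 3 of 9 genes, where 18.4% of all genes were called, 8.38% higher and 10.1% lower. In ΔG cells 0 of 9 passed in limma, where 0.813% of all genes were called, 0.602% higher and 0.211% lower, and 1 of them, Lmnb1, had an unadjusted p under 0.05. Between the mutants, Hmgb2, Lmnb1 and Tmpo were lower in ΔG than in null, 3 of 9 where 8.71% of all genes were called, 4.44% higher and 4.27% lower. The median log2 difference of the 9 genes was 0.069 for ΔG minus WT (all genes −0.018), 0.37 for null minus WT (all genes −0.010) and −0.32 for ΔG minus null (all genes −0.0075). The comparisons share arrays and are not independent of each other. The share of all genes whose groups do not overlap was not counted. Statements below that arrays of a gene lay apart therefore describe that gene only.

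**Figure D1:**
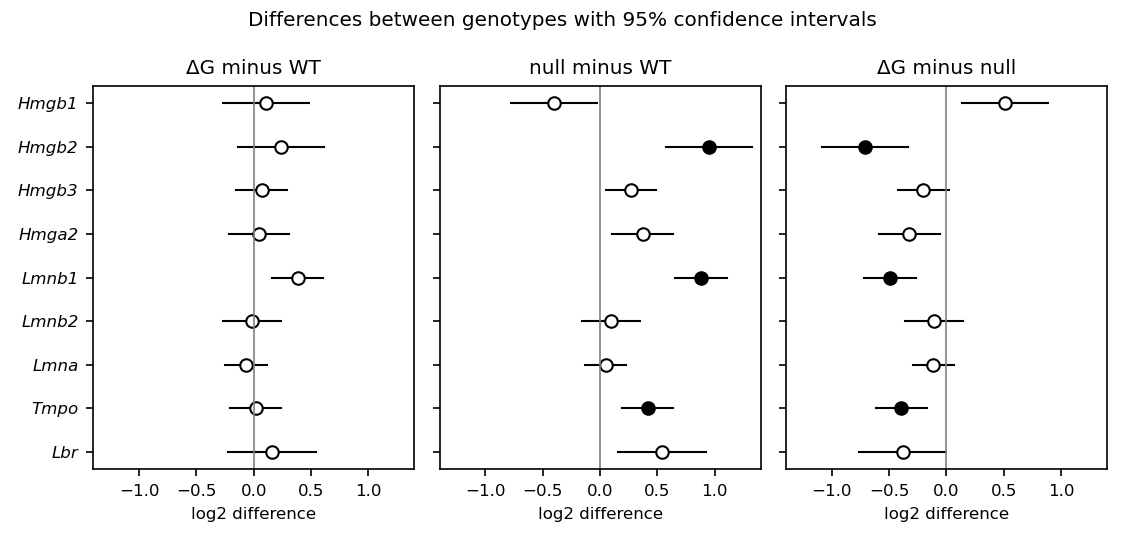
Log2 difference (horizontal axis) of each gene, with a panel each for ΔG over WT, null over WT and ΔG over null; points are limma estimates, lines their 95% confidence intervals, and filled points passed an adjusted p of 0.05 over all genes. Filled points stand at Hmgb2, Lmnb1 and Tmpo in the comparisons that include null cells, and no point is filled in ΔG minus WT.

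Hmgb2, Hmgb3, Hmga2, Lmnb1, Tmpo and Lbr were higher on every null array than on every WT array. Lmnb1 had no promoter window at hand. The letters before the transcript starts of the others are shown beside those of Hmgb1 and Lmna, which were not higher on every null array. Lmnb2 was not either, and its windows, with an E2F-like core at start 1, are not printed. The printed windows were chosen by these same array values. A motif difference between genes that rose and genes that did not was not tested. RefSeq windows of 300 bases (250 before and 50 after a start, build GRCm38.p6) were at hand for 9 of the 10 listed genes, Lmnb1 being the other, in 14 windows, and start sites are numbered along the direction of transcription. Both strands were searched for an E2F-like core (TTCCCGC or TTCGCGC or TTGGCGC or TTGCCGC), for the cell cycle homology region (CHR, TTTGAA), an element bound by MuvB complexes in many mitotic genes, and for the CCAAT box (CCAAT), bound by NF-Y. The reverse of TTGGCGC can overlap a CCAAT box, but no matches overlapped in these windows. Of 32851 windows of that length in the table, 9.57% held an E2F-like core, 17.9% a CHR, 37.4% a CCAAT box and 6.95% both of the last kinds. The 140 bases before the start are printed 5′ to 3′ on the gene's strand, with matches in capitals. They lie at chr8:57511703-57511842 (plus strand) for Hmgb2, chrX:71555777-71555916 (plus strand) for Hmgb3, chr10:120476470-120476609 (minus strand) for Hmga2, chr10:91171620-91171759 (minus strand) and chr10:91170551-91170690 (minus strand) for starts 1 and 2 of Tmpo, chr1:181842402-181842541 (minus strand) for Lbr, chr5:149053058-149053197 (minus strand) for start 1 of Hmgb1 and chr3:88503353-88503492 (minus strand) for start 1 of Lmna.
Hmgb2: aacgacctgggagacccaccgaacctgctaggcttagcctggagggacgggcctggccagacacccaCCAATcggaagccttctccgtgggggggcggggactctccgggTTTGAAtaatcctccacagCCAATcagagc
Hmgb3: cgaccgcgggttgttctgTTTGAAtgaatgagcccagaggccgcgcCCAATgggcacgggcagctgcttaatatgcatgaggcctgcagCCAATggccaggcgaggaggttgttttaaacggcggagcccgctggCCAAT
Hmga2: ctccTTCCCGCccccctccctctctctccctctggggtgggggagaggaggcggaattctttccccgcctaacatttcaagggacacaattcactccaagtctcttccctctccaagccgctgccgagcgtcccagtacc
Tmpo start 1: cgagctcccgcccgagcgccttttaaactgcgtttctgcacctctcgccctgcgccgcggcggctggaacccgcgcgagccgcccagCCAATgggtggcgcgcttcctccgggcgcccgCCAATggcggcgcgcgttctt
Tmpo start 2: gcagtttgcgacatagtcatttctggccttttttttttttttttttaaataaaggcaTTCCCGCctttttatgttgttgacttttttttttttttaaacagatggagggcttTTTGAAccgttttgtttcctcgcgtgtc
Lbr: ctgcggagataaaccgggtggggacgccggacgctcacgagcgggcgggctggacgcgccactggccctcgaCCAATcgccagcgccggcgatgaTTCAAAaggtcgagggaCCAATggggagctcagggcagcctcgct
Hmgb1 start 1: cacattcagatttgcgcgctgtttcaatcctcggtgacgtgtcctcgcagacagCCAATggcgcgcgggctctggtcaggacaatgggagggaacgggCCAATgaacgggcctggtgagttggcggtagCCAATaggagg
Lmna start 1: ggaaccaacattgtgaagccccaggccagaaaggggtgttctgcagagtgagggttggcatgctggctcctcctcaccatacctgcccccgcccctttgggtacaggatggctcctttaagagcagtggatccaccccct

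Hmgb2 and Lbr each had a CHR within 45 bases of the start with CCAAT boxes upstream of it and downstream of it. In Hmgb2 the CHR began 30 bases before the start and the nearest CCAAT boxes 73 and 11 bases before it, and a further CHR (218) and CCAAT boxes (198 and 243) lay beyond the printed stretch. In Lbr the CHR began 45 bases before the start and the CCAAT boxes 68 and 28. Tmpo start 1 had 2 CCAAT boxes and no CHR, while start 2 had a CHR at 28 bases and E2F-like cores at 83 and 194. Hmgb3 had a CHR at 122 bases and 3 CCAAT boxes. Hmgb1 start 1 had 3 CCAAT boxes and neither other motif, Hmga2 and start 1 of Lmnb2 had 1 E2F-like core each at 136 and 40 bases, and Lmna had a single CCAAT box, at start 2. A match is a run of letters and not a measured binding site.

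**Figure D2:**
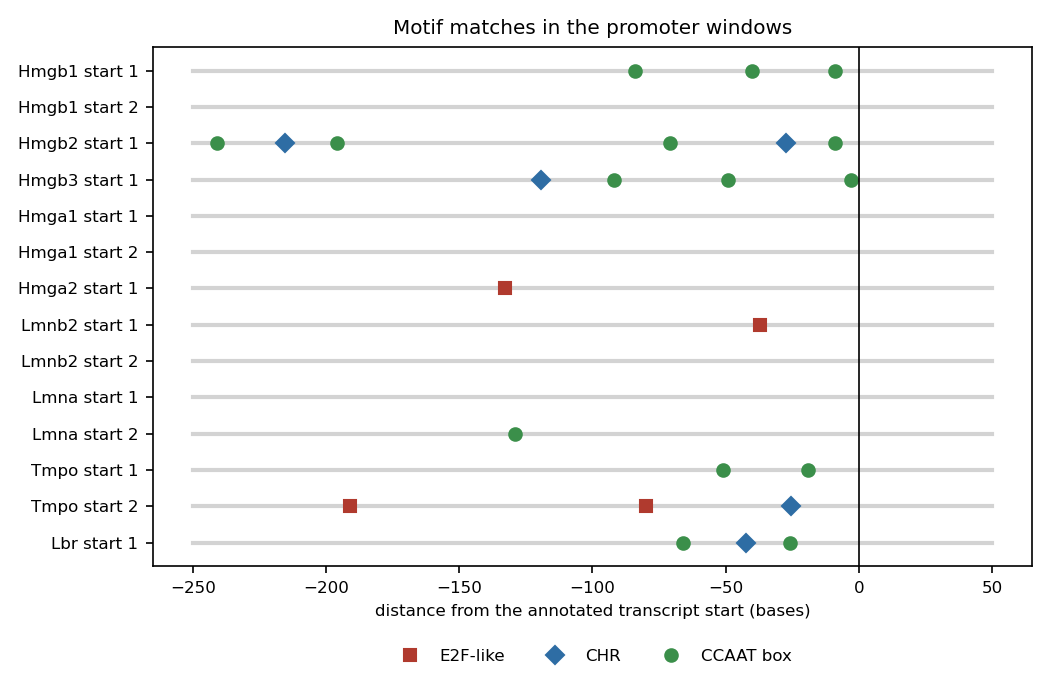
Positions of motif matches (horizontal axis, bases from the annotated transcript start) in the 14 promoter windows, numbered along the direction of transcription; squares are E2F-like cores, diamonds CHR and circles CCAAT boxes. CHR matches appear in Hmgb2, Hmgb3, Tmpo start 2 and Lbr, and Hmga1, which has no value on the arrays, has no match.

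Among the 9 genes Hmgb2 differed most between null and WT cells. HMGB2 is an abundant DNA-bending protein of proliferating cells. Its signal was 6.89, 6.77 and 7.45 on ΔG replicates 1 to 3, 7.95, 7.69 and 7.62 on null replicates 1 to 3, and 7.02, 6.55 and 6.82 on WT replicates 1 to 3. Every null array lay above every ΔG and WT array, and ΔG replicate 3 lay between the null arrays and the remaining ones. In null minus WT the log2 difference was 0.95 (SE 0.17, n = 3 each, limma adjusted p = 0.0029), and it kept its call without any single array, but not with the Y-linked covariate (0.85, adjusted p = 0.077). In ΔG minus WT it was 0.24 (95% interval −0.14 to 0.61, limma adjusted p = 0.66), or 0.031 without ΔG replicate 3. In ΔG minus null it was −0.71 (limma adjusted p = 0.026). That call was lost without ΔG replicate 1, ΔG replicate 2, null replicate 1 or null replicate 2 (limma adjusted p = 0.055 to 0.11). It was also lost with the Y-linked covariate (limma adjusted p = 0.52). Over the 18 alternatives of this comparison the difference ran from −0.92 to −0.56. The array has 4 probe sets for Hmgb2 that are annotated to the same transcripts, and in a fit over all probe sets their null minus WT differences were 0.90 to 1.02, each called (limma adjusted p = 0.0079 to 0.013). They are not separate readings, and 10.2% of all 35511 probe sets were called in that comparison.

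Hmgb3, an X-linked HMGB gene expressed in stem and progenitor cells, differed less. It had signals of 7.32, 7.33 and 7.65 on ΔG replicates 1 to 3, 7.76, 7.61 and 7.53 on null replicates 1 to 3, and 7.45, 7.33 and 7.31 on WT replicates 1 to 3. The null arrays lay above the WT arrays, and ΔG replicate 3 was within the null range. The null minus WT difference of 0.27 (SE 0.10) did not pass (limma adjusted p = 0.091), but did without ΔG replicate 3 (limma adjusted p = 0.037). That omission leaves the difference at 0.27 and acts only through the shared estimate of the spread and the adjustment. In ΔG minus WT the difference was 0.069 with ΔG replicate 3 and −0.039 without it. In ΔG minus null it was −0.20 (limma adjusted p = 0.26), and −0.31 without that array (limma adjusted p = 0.048). A second probe set gave 0.31 for null minus WT, against 0.27 for the first.

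Hmgb1, which encodes the widely expressed HMGB protein that also acts as an alarm signal outside cells, ran the other way. Its signal was 7.25, 7.23 and 7.34 on ΔG replicates 1 to 3, 6.70, 6.64 and 6.96 on null replicates 1 to 3, and 7.49, 7.33 and 6.68 on WT replicates 1 to 3. WT replicate 3, the WT array with high Xist, lay within the null range, and the other WT arrays lay with ΔG. The null minus WT difference was −0.40 (SE 0.17, limma adjusted p = 0.14). It was −0.65 without WT replicate 3, which passed (limma adjusted p = 0.0027), and 0.083 against WT replicate 3 alone (limma adjusted p = 0.78), a lone array assumed to vary like the rest. ΔG minus null was 0.51 (limma adjusted p = 0.093), or −0.25 with the Y-linked mean as a covariate. Another 34 probe sets name Hmgb1 together with other genes, such as Hmgb1-rs17, and cannot be assigned to it. Over these sets the null minus WT differences ran from −0.19 to 0.22 with a median of 0.065, none was called or had an unadjusted p under 0.05 in limma, where 10.2% of all 35511 probe sets were called. The difference was positive in 28 of the 34, opposite in sign to that of the set annotated to Hmgb1 alone. These sets may read the same transcripts and are not separate readings. The share of all probe sets with a positive difference was not counted, so the signs do not bear on the direction of Hmgb1.

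Hmga2, an AT-hook protein that is high in embryonic cells and repressed by let-7 microRNAs, was bright on all arrays. Its signal was 9.88, 10.09 and 10.04 on ΔG replicates 1 to 3, 10.19, 10.65 and 10.14 on null replicates 1 to 3, and 9.98, 9.95 and 9.93 on WT replicates 1 to 3. The null arrays lay above all others, and null replicate 2 was the highest. The null minus WT difference of 0.37 (SE 0.12) missed the threshold (limma adjusted p = 0.053), passed in 6 of 19 alternatives, and was 0.21 without null replicate 2 (limma adjusted p = 0.13). In ΔG minus WT it was 0.048 (95% interval −0.22 to 0.31).

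Of the lamins, Lmnb1 was the gene whose arrays lay apart in all 3 genotypes, though its ΔG minus WT difference did not pass. Its signal was 7.48, 7.38 and 7.60 on ΔG replicates 1 to 3, 8.11, 7.96 and 7.89 on null replicates 1 to 3, and 7.28, 6.92 and 7.12 on WT replicates 1 to 3. No group overlapped another, and the ΔG arrays lay between null and WT. In null minus WT the log2 difference was 0.88 (SE 0.10, n = 3 each, limma adjusted p = 0.0002), and it passed in all 19 alternatives with values of 0.78 to 0.97. In ΔG minus WT it was 0.38, or 1.30-fold (95% interval 0.16 to 0.61, unadjusted p = 0.0032 in limma), which did not pass over all genes (limma adjusted p = 0.14) or in any of the alternatives (0.29 to 0.47, limma adjusted p = 0.092 to 0.35). Without ΔG replicate 3 it was 0.33. In ΔG minus null it was −0.49 (limma adjusted p = 0.013). That call was lost without ΔG replicate 1, ΔG replicate 2 or null replicate 1 (limma adjusted p = 0.052, 0.059 and 0.066). It was also lost with the Y-linked covariate (limma adjusted p = 0.40). Over the 18 alternatives of this comparison the difference ran from −0.55 to −0.43.

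The other lamin genes differed less between genotypes. Lmnb2, the second B-type lamin, had 6.80, 6.77 and 6.69 on ΔG replicates 1 to 3, 7.11, 6.91 and 6.57 on null replicates 1 to 3, and 6.80, 6.72 and 6.79 on WT replicates 1 to 3. The null arrays spread to both sides of the other groups. Its differences were −0.015 in ΔG minus WT and 0.096 in null minus WT (95% intervals −0.27 to 0.24 and −0.16 to 0.35). Lmna, bright on every array, had 9.59, 9.57 and 9.76 on ΔG replicates 1 to 3, 9.80, 9.81 and 9.66 on null replicates 1 to 3, and 9.73, 9.61 and 9.78 on WT replicates 1 to 3. All groups overlapped, with differences of −0.066 in ΔG minus WT and 0.048 in null minus WT (95% intervals −0.25 to 0.11 and −0.13 to 0.23). Both genes' intervals stay under the estimates for Lmnb1 in the same comparisons.

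Of the inner membrane genes, Tmpo rose in null cells. It had 9.33, 9.33 and 9.61 on ΔG replicates 1 to 3, 9.83, 9.87 and 9.76 on null replicates 1 to 3, and 9.44, 9.22 and 9.55 on WT replicates 1 to 3. The null arrays lay above all others, and ΔG and WT overlapped. The null minus WT difference was 0.41 (SE 0.10, limma adjusted p = 0.015). The call was lost without null replicate 1, null replicate 2 or WT replicate 2 (limma adjusted p = 0.053, 0.051 and 0.063), against WT replicate 3 alone (0.27, limma adjusted p = 0.25) and with the Y-linked covariate (0.23, limma adjusted p = 0.37). In ΔG minus WT it was 0.019 (95% interval −0.20 to 0.24), and −0.074 without ΔG replicate 3. In ΔG minus null it was −0.40 (limma adjusted p = 0.034). That call was lost without ΔG replicate 1, ΔG replicate 2 or any null replicate (limma adjusted p = 0.063 to 0.14). It was also lost with the covariate (limma adjusted p = 0.82). Over the 18 alternatives of this comparison the difference ran from −0.49 to −0.12. The 1 probe set does not separate the LAP2 forms.

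Lbr spread widely among the ΔG and WT arrays. Its signal was 8.95, 8.35 and 8.60 on ΔG replicates 1 to 3, 9.03, 9.03 and 8.99 on null replicates 1 to 3, and 8.30, 8.22 and 8.89 on WT replicates 1 to 3. The null arrays were nearly equal and lay above all others, with ΔG replicate 1 and WT replicate 3 just under them. The null minus WT difference of 0.54 (SE 0.17) missed the threshold (limma adjusted p = 0.051) and passed in 8 of 19 alternatives. It was 0.75 without WT replicate 3 (limma adjusted p = 0.0053) and 0.12 against that array alone (limma adjusted p = 0.75). In ΔG minus WT it was 0.16 (95% interval −0.22 to 0.54). Whether sex pattern sets the levels of Lbr and Hmgb1 was not tested beyond these values, since 1 WT array has the pattern of the null arrays.

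**Figure D3:**
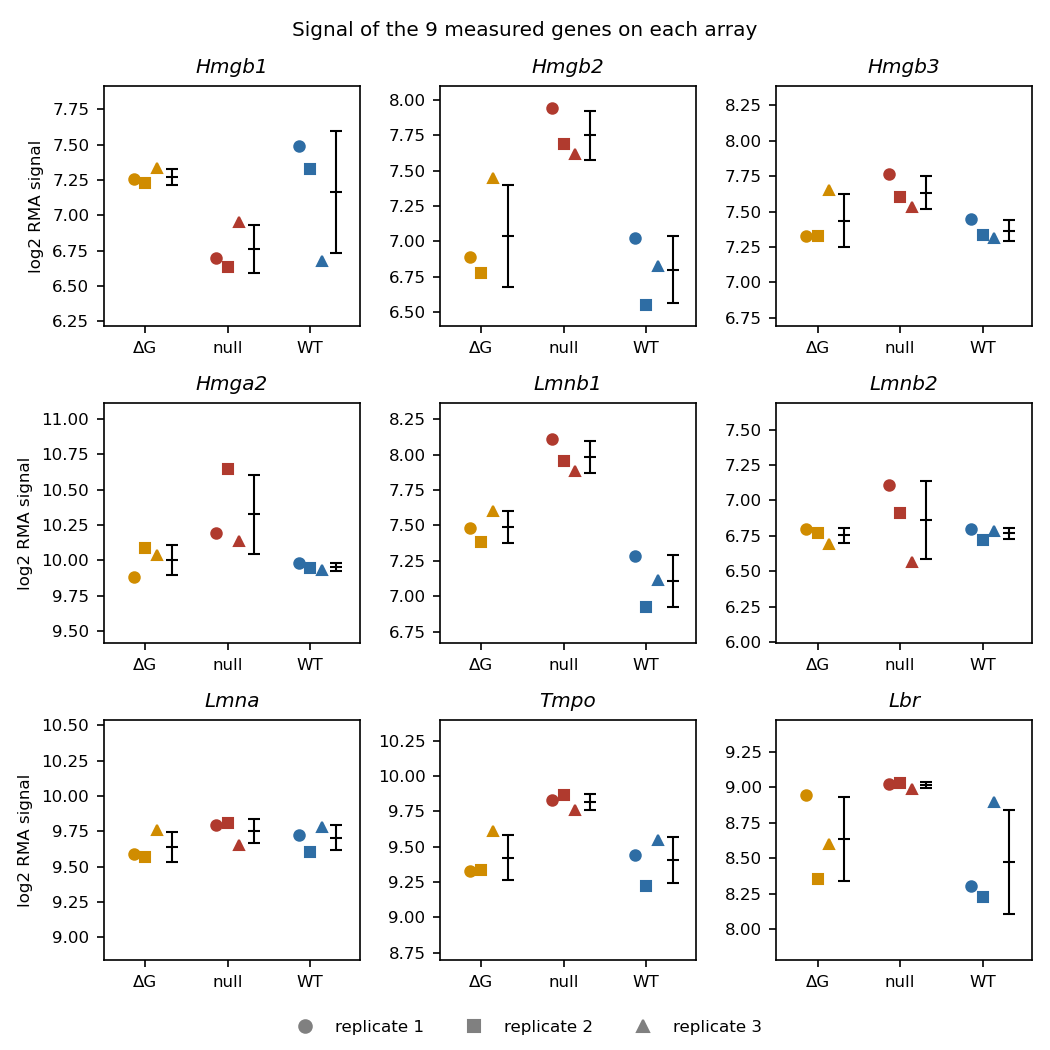
Log2 RMA signal (vertical axis, each panel spanning 1.7 units) of the 9 genes on the ΔG, null and WT arrays; symbols mark the replicate, and bars beside them the mean and SD of 3 arrays. Null arrays stand above both other groups for Hmgb2, Lmnb1, Tmpo, Hmga2 and Lbr, and WT replicate 3 lies near the null arrays for Hmgb1 and Lbr.

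The genes were also set beside mitotic and MCM genes on each array. Relative to the WT mean, ΔG replicates 1, 2 and 3 stood at 0.09, −0.03 and 0.65 for Hmgb2 and at −0.08, −0.07 and 0.20 for Tmpo, while Lmnb1 stood at 0.38, 0.27 and 0.50. ΔG replicate 3 was the highest ΔG array for 6 of the 9 genes, against 34.6% of all genes. Arrays of the other genotypes had like counts: null replicate 3 was the lowest null array for 8 of 9 (47.0% of all genes), WT replicate 1 the highest WT array for 6 of 9 (27.8%) and WT replicate 2 the lowest for 6 of 9 (26.5%). The mean of 17 mitotic genes was 8.47 on ΔG replicate 3, within the range of neither the remaining ΔG arrays nor the null arrays (8.69 to 8.91). The 6 MCM helicase genes, which unwind DNA at replication origins, were high on all ΔG arrays (means 8.93 to 9.17, against 7.61 to 8.01 on WT arrays). All 6 MCM genes rose in both mutants, with medians of 1.32 in ΔG minus WT and 1.74 in null minus WT. Of all genes, 0.602% were called higher in ΔG and 8.38% in null. Of the 17 mitotic genes, all rose in null (median 1.03), while in ΔG 0 passed in limma (1 at an unadjusted p under 0.05, median 0.21). A count of 0 in ΔG is near the share of all genes called there.

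**Figure D4:**
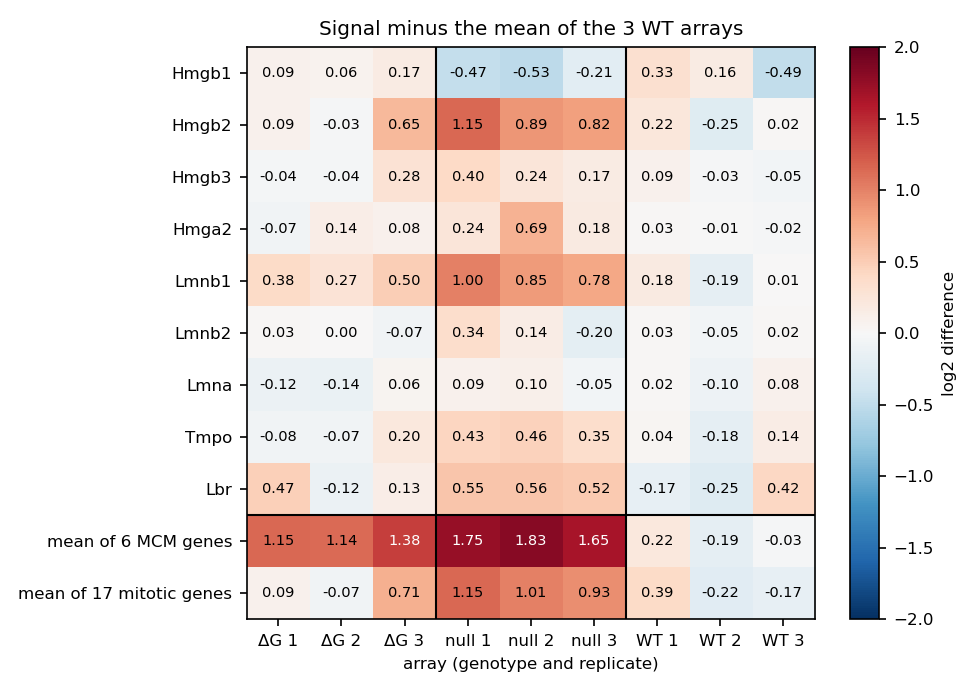
Log2 signal minus the mean of the 3 WT arrays for the 9 genes and for the means of 6 MCM and 17 mitotic genes (rows) on each array (columns); red is higher and blue lower. Hmgb2, Tmpo and the mitotic mean are higher on ΔG replicate 3 than on the other ΔG arrays, while Lmnb1 and the MCM mean are above the WT mean on all 3.

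By Pearson correlation over the 9 arrays, given as a description because the genotype differences enter it, the genes most like Hmgb2 were the condensin subunit gene Ncapg (r = 0.993), Arhgap19 and Sass6, a centriole assembly gene. Those most like Lmnb1 were Rbbp7, a histone-binding protein, Cenpk, of the inner kinetochore, and the G1/S cyclin Ccne2 (r = 0.993 to 0.994). Ccne2 itself differed by 0.77 in ΔG minus WT and 1.86 in null minus WT. Most like Tmpo were Cpsf2, Acss2 and Vrk1, a kinase of the envelope protein BAF (r = 0.983 to 0.987), and most like Lbr was Nup37, a nuclear pore gene (r = 0.966). Among the 9 genes themselves, Hmgb2 correlated with Lmnb1, Tmpo and Hmgb3 at 0.949, 0.938 and 0.936, and Hmgb1 was negatively correlated with Lbr (−0.788).

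Other gene groups are given as counts, to be read beside the shares of all genes called. These were 8.38% higher and 10.1% lower in null minus WT, and 0.602% higher and 0.211% lower in ΔG minus WT. Of 19 other nuclear envelope genes, 5 rose and 0 fell in null cells, with 11 at an unadjusted p under 0.05 in limma and a median of −0.032. Nrm, the inner membrane protein nurim, rose 2.27-fold, with 7.70, 7.90 and 7.89 on ΔG replicates 1 to 3, 8.47, 8.44 and 8.45 on null replicates 1 to 3, and 7.49, 7.20 and 7.13 on WT replicates 1 to 3. Syne2, the nesprin-2 gene that links the envelope to the cytoskeleton, rose 1.86-fold, with 6.74, 6.81 and 6.66 on ΔG replicates 1 to 3, 7.16, 7.22 and 7.11 on null replicates 1 to 3, and 6.38, 6.20 and 6.23 on WT replicates 1 to 3. As with Lmnb1, the groups did not overlap for either gene and ΔG lay between null and WT. Both also rose in ΔG, by 0.56 and 0.47 (limma adjusted p = 0.029 and 0.015), the only 2 of the 19 to do so, where 0.602% of all genes were called higher. Nrm lost that call without ΔG replicate 2 or 3, null replicate 1 or WT replicate 2 or 3 and with the covariate (limma adjusted p up to 0.13). In ΔG minus WT, omitting WT replicate 3 is the same fit as keeping only WT arrays of the same sex pattern. Syne2 lost its ΔG call without ΔG replicate 1 or 2 or WT replicate 2 and with the covariate (limma adjusted p up to 0.084). In null cells both kept their calls in the 9 omissions of 1 array and both sex pattern alternatives. Nemp1, an inner membrane protein, and Vrk1 rose by 0.52 and 0.51, and Emd, the emerin gene, by 0.35 (limma adjusted p = 0.0057, 0.0086 and 0.042). Emd lost its call in 9 of those 11 alternatives, among them the omission of any WT array (limma adjusted p up to 0.16), and Vrk1 in both sex pattern alternatives (up to 0.33). Against WT replicate 3 alone and with the covariate, Emd differed by 0.42 and 0.41 and Vrk1 by 0.28 and 0.23.

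Of 7 measured genes of lamin processing, 0 rose and 1 fell in null cells. It was Fnta, the alpha subunit of farnesyltransferase (−0.27, limma adjusted p = 0.022), which lost its call without null replicate 2, WT replicate 1 or WT replicate 3 and in both sex pattern alternatives (limma adjusted p up to 0.13). The Fnta difference was −0.28 against WT replicate 3 alone and −0.30 with the covariate. Casp6, a protease that cuts lamin A in apoptosis, differed by −0.47 (limma adjusted p = 0.056). Of 5 measured heterochromatin partners, including the HP1 proteins that bind the lamin B receptor, 3 rose in null cells. Cbx5, encoding HP1 alpha, rose by 0.53, the corepressor Trim28 by 0.33 and the histone methyltransferase Suv39h2 by 0.32 (limma adjusted p = 0.0039, 0.018 and 0.044). Cbx5 lost its call in both sex pattern alternatives (limma adjusted p up to 0.10), and Trim28 without null replicate 1 or WT replicate 3 (up to 0.0625). Suv39h2 lost its call in both sex pattern alternatives and without ΔG replicate 2, any null replicate or WT replicate 2 or 3 (up to 0.17). Against WT replicate 3 alone and with the covariate, Cbx5 differed by 0.48 and 0.45 and Suv39h2 by 0.42 and 0.40.

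Of 15 other measured HMG family genes, 4 rose and 1 fell in null cells, where 18.4% of all genes were called in either direction, and the median was 0.022. Hmgn2, a nucleosome-binding protein, rose by 0.68, the mitochondrial DNA packaging factor Tfam by 0.53, the repressor Cic by 0.43 and the nucleosome-binding Hmgn5 by 0.62, while Tox4 fell by 0.31 (limma adjusted p = 0.0037 to 0.028). Cic kept its call in the 11 alternatives. Hmgn2, Tfam and Tox4 lost theirs in both sex pattern alternatives (up to 0.15), and Hmgn5 there and without null replicates 1 or 2 or WT replicates 1 or 2 (up to 0.64). Against WT replicate 3 alone and with the covariate, Tox4 differed by −0.30 and −0.30 and Hmgn2 by 0.65 and 0.59. Tfam differed by 0.47 and 0.43 and Hmgn5 by 0.23 and 0.19. In ΔG cells 0 of these 15, 0 of the 7 lamin processing genes and 0 of the 5 heterochromatin partners passed in limma (2, 1 and 1 at an unadjusted p under 0.05). Of 7 HMGB1 receptors and partners, Cd24a and the adaptor Myd88 rose in null cells by 0.81 and 0.48 (limma adjusted p = 0.022 and 0.016), and both lost the call without null replicate 2 or WT replicate 3 and with the Y-linked covariate, Cd24a also without null replicate 1 (up to 0.086). Of 6 oncofetal genes linked, like Hmga2, to let-7, Plagl2 rose by 0.32 and Igf2bp3 fell by 0.31 in null cells (limma adjusted p = 0.016 and 0.0095). Plagl2 lost its call without null replicate 2 or WT replicate 3 and with the covariate, and Igf2bp3 in both sex pattern alternatives. With the covariate the null minus WT differences were 1.10 for Cd24a, 0.63 for Myd88, 0.41 for Plagl2 and −0.32 for Igf2bp3. In ΔG, 0 of these 7 and 0 of these 6 passed in limma, and 0 had an unadjusted p under 0.05.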

How the data were processed

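RNA from 9 serum-starved cultures was hybridised to Affymetrix Mouse Gene 1.0 ST arrays. The deposited log2 values were made by the authors with RMA from BRB-ArrayTools, per the series text, and the submitters' processing notes list RMA and affy. RMA corrects background, normalises by quantiles, which assumes like signal distributions, and summarises probe sets. Software versions and the genome build were not given in the sources used here. Detection calls were not at hand, and precision is limited by the number of arrays.

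The 35512 probe sets include 1 without values; 21789 have exactly 1 gene symbol, 1621 several and 12101 none. Of the former, 21698 matched RefSeq (GRCm38.p6) by gene ID. For 999 genes with several sets the one with the highest mean was kept, leaving 19938. The log2 values of the 9 arrays were fitted together with limma 3.58.1 in R 4.3.3, one coefficient for each genotype, leaving 6 residual degrees of freedom. P-values were adjusted by Benjamini-Hochberg over all genes, with a threshold of 0.05. Array numbers were not used as pairs, since no label says that they mark litters. Deviations from group means correlated at −0.084 to 0.27 for same-numbered arrays and at −0.24 to 0.14 for differently numbered ones. Alternatives covered scaling, a filter on dim genes, probe set choice, spread estimate, groups in the fit, array number, sex pattern and each array's omission. Named genes are the members, the 4 of lowest p per list and comparison with WT, and the 3 most correlated per member. Members and lists were chosen with earlier results of these data known.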

Additional observations from a re-analysis of the deposited data

How the results depend on the processing

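Over 27 gene results (9 genes in 3 comparisons) and up to 19 alternatives, 447 of 504 values kept their direction and their side of the threshold, 21 lost a call, 19 gained one and 17 changed sign; where no cause is named, it was not tested. In ΔG minus WT, omitting WT replicate 3 and keeping only WT arrays of the same sex pattern are the same fit. The totals count it under both names. With 1 array left out, 62 to 252 genes were called in ΔG minus WT (162 with all), 2546 to 3895 in null minus WT (3678) and 762 to 2408 in ΔG minus null (1737). Of the 9 genes, 2 to 4 were then higher and 0 to 1 lower in null minus WT, 0 to 1 higher and 0 to 4 lower in ΔG minus null, and 0 in ΔG minus WT. The lower call in null minus WT was Hmgb1 without WT replicate 3, which also made it the higher call in ΔG minus null. The 3 lower calls in ΔG minus null became 0 without ΔG replicate 1, ΔG replicate 2 or null replicate 1, and 1 (Lmnb1) without null replicate 2. Without ΔG replicate 3 it was 4, adding Hmgb3. The counts without ΔG replicate 1, ΔG replicate 2 or null replicate 1 were 83, 70 and 91 genes in ΔG minus WT and 762, 885 and 847 in ΔG minus null; in ΔG minus WT it was 62 without WT replicate 2 and 252 without ΔG replicate 3.

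Repeated quantile normalisation, removal of the dimmest 25% of genes (fewer genes tested) and the replicate block each gave 5 higher genes in null minus WT in place of 3, adding Hmga2 and Lbr. Whether array numbers mark litters is unknown, and not every array correlated best with its own number. With only ΔG and null in the fit Hmgb1 was called, 1 higher gene. With the Y-linked mean as a covariate, 1580 genes were called in null minus WT and 53 in ΔG minus null, with 1 higher gene of the 9 (Lmnb1) in the first and 0 lower in the second. Null arrays against WT replicate 3 alone gave 2010 genes.

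Changes of sign concerned differences that did not pass. Under the Y-linked covariate Hmgb1 was −0.13 in ΔG minus WT, 0.11 in null minus WT and −0.25 in ΔG minus null, Lmna −0.058 in null minus WT and 0.041 in ΔG minus null, and Lbr 0.28 in ΔG minus null. Against WT arrays of the same sex pattern Hmgb1 was −0.14 in ΔG minus WT and 0.083 in null minus WT, and Lmna −0.030 in null minus WT. With 1 array left out, ΔG minus WT ran from −0.14 to 0.27 for Hmgb1, −0.039 to 0.12 for Hmgb3, −0.039 to 0.015 for Lmnb2 and −0.074 to 0.089 for Tmpo. Null minus WT ran from −0.028 to 0.24 for Lmnb2 and −0.00098 to 0.097 for Lmna, and ΔG minus null from −0.26 to 0.014 for Lmnb2.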
